A study of Homo sapiens with 24 samples.

Results

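Homologous recombination and the Fanconi anemia pathway were followed through 36 member genes, taken by symbol from the Ensembl gene ids of the deposited files. All 36 were found among the 60675 gene ids per file, each under 1 id, and all 36 were among the 20668 genes that passed the filter on low values. The cells were HCT116, an established human colorectal carcinoma line, in 3 versions named for p53 as Mutant (p53 mutant), Null (p53 null) and WT (p53 wild type). Each line received the combination of 20 uM APR-246 pretreatment and 6 Gy of irradiation, 6 Gy of irradiation, 20 uM APR-246, or solvent, which gives 12 groups of 2 libraries and 24 libraries in all. APR-246 is a prodrug developed to act on mutant p53. The medium was McCoy 5A with 10% fetal bovine serum for every line, and collection is labelled as 72 hours after irradiation. The labels name neither the p53 mutation nor the origin of the lines, and each p53 status is 1 line, so line and p53 status cannot be told apart. They number the replicates without saying whether these were separate cultures, so the p-values cover no more than the variation among these libraries.

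Homologous recombination repairs a double-strand break by copying an intact sister chromatid, and so works mainly in S and G2 phase. The break is sensed and cut back to single strands, BRCA1, PALB2 and BRCA2 help to build the filament that finds the matching sequence, and the joint molecules that form are later dissolved or cut apart. The Fanconi anemia pathway answers crosslinks between the strands: a nuclear core complex adds ubiquitin to FANCD2 and FANCI, which hands the lesion to nucleases and then to recombination. Many of these genes are known to be transcribed most in proliferating cells.

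Promoter windows are shown for EXO1, RAD54L, FANCA, UBE2T and EME1, which were called higher after irradiation in the average over the lines described further on. Each is the 200 bases before the gene start in RefSeq (GRCh38.p14), written on the gene's own strand, with matches to the searched letters in capitals.
EXO1, chr1:241848004-241848203, plus strand: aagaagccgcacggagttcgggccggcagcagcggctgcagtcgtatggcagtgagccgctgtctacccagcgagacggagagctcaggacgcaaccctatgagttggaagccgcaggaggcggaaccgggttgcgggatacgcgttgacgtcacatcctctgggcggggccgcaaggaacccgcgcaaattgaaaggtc
RAD54L, chr1:46247488-46247687, plus strand: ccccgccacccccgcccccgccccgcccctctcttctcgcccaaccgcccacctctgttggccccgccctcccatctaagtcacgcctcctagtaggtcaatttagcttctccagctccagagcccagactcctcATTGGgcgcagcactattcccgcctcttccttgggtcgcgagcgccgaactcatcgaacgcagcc
FANCA, chr16:89816648-89816847, minus strand: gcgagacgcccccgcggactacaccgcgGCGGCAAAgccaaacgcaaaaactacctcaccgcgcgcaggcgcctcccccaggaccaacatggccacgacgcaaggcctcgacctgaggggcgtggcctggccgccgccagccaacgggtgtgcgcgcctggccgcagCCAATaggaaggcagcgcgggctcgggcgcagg
UBE2T, chr1:202341937-202342136, minus strand: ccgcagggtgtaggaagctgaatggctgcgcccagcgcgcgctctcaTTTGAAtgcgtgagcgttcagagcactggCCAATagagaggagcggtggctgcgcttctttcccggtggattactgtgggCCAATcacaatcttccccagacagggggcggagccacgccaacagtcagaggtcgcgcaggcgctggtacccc
EME1, chr17:50373029-50373228, plus strand: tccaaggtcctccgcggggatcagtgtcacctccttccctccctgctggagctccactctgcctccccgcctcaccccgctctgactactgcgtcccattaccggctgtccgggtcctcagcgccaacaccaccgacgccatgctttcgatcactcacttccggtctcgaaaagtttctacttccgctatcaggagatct
The searched letters, on both strands, were TTTCCCGC, TTTGGCGC, TTTCGCGC or TTTGCCGC (E2F), TTTGAA or TTCGAA (CHR) and CCAAT (the NF-Y box), in windows of 300 bases that end 50 bases after the start. RefSeq windows were found for 31 of the 36 members. Where a member had 2 windows the first was used, whereas the shares of all windows count every window of a gene. E2F letters were in 5 of these 31 (16.1%), namely EXO1, XRCC2, FANCA, FANCC and FANCD2, and in 1164 of all 35116 windows (3.31%). No 2 matches in a member overlapped. CHR letters were in 3 members (9.68%) and 16.4% of all windows, and CCAAT was in 12 members (38.7%) and 34.6% of all windows. In FANCA the E2F letters begin 172 bases before the start. In EXO1 they begin at base 5 after the start, outside the printed window. A second CCAAT of RAD54L begins 2 bases before the start and runs past the printed window, so it is not in capitals. Among the 5 windows shown, UBE2T alone held CHR letters, and RAD54L, FANCA and UBE2T held CCAAT. A match is a description of letters and not a shown binding site.

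The libraries held 53184139 to 58058729 reads assigned to genes, and 3 reads correspond to 0.0517 to 0.0564 CPM. Libraries within a group differed in how strongly levels followed the GC content of genes: the slope of log2 level on GC percent ran from -0.0649 (Mutant solvent library 1) to 0.0595 (Null combination library 2), and library 1 had the lower slope in 11 of the 12 groups. Group means of the slope were 0.0214, 0.0154 and 0.0138 in irradiated Mutant, Null and WT cells, against -0.0207, 0.00449 and -0.0134 in solvent. Under the combination they were 0.00159, 0.0225 and -0.0336, and under APR-246 0.00132, 0.0031 and -0.0158. Each comparison is therefore given without and with this library slope in the model. CDKN1A, a p53 target, had 182 and 183 CPM in irradiated Mutant, 281 and 302 CPM in irradiated Null and 2253 and 2162 CPM in irradiated WT cells, against 181 and 240, 348 and 357 and 508 and 582 CPM in their solvent groups. Of 9 colon epithelial genes 5 were above 1 CPM in every library. These were EPCAM, CDH1, the keratins KRT8 (2355 to 9283 CPM) and KRT18, and the intestinal marker CDX2 (27.8 to 65.2 CPM). The intestinal markers CDX1 and LGR5 did not exceed 0.180 CPM, and KRT20 and VIL1 reached 2.14 and 1.52 CPM at most. The 6 blood markers summed to 0.173 to 2.80 CPM and the 6 fibroblast markers to 11.8 to 69.05 CPM, nearly all of it COL1A1. In such bulk libraries fewer cells of a type and less RNA per cell cannot be told apart.

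Per kilobase of exon, the members covered a wide range of levels. UBE2T, the E2 enzyme of the Fanconi core, was highest at 15.1 ± 5.48 CPM per kb (mean ± SD over 24 libraries), followed by FANCE at 10.5 ± 3.18, MUS81 at 7.02 ± 1.04 and FANCA at 6.36 ± 2.36 CPM per kb. At the other end were BRCA2 at 0.241 ± 0.155, FANCM at 0.248 ± 0.134, FANCB at 0.297 ± 0.154 and RAD54B at 0.307 ± 0.172 CPM per kb, and FANCG was lowest at 0.180 ± 0.0787 CPM per kb. FANCG rested on as few as 7 reads in 1 library. Exons shared with another annotated gene covered 79.7% of RAD50, 76.7% of XRCC3, 59.1% of RAD54B, 25.1% of RAD54L and 23.6% of FANCA. In RAD50 and RAD54B the other gene lies on the same strand, so counting by strand would not separate these reads. In XRCC3, RAD54L and FANCA it lies on the opposite strand, and counting by strand is not stated. Smaller shares, also with genes on the opposite strand, were 19.7% in FANCL, 16.4% in EME1, 14.1% in MUS81 and 11.3% in FANCF. Other members shared less or none. The levels of the genes named here are uncertain to that extent.

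**Figure D1:**
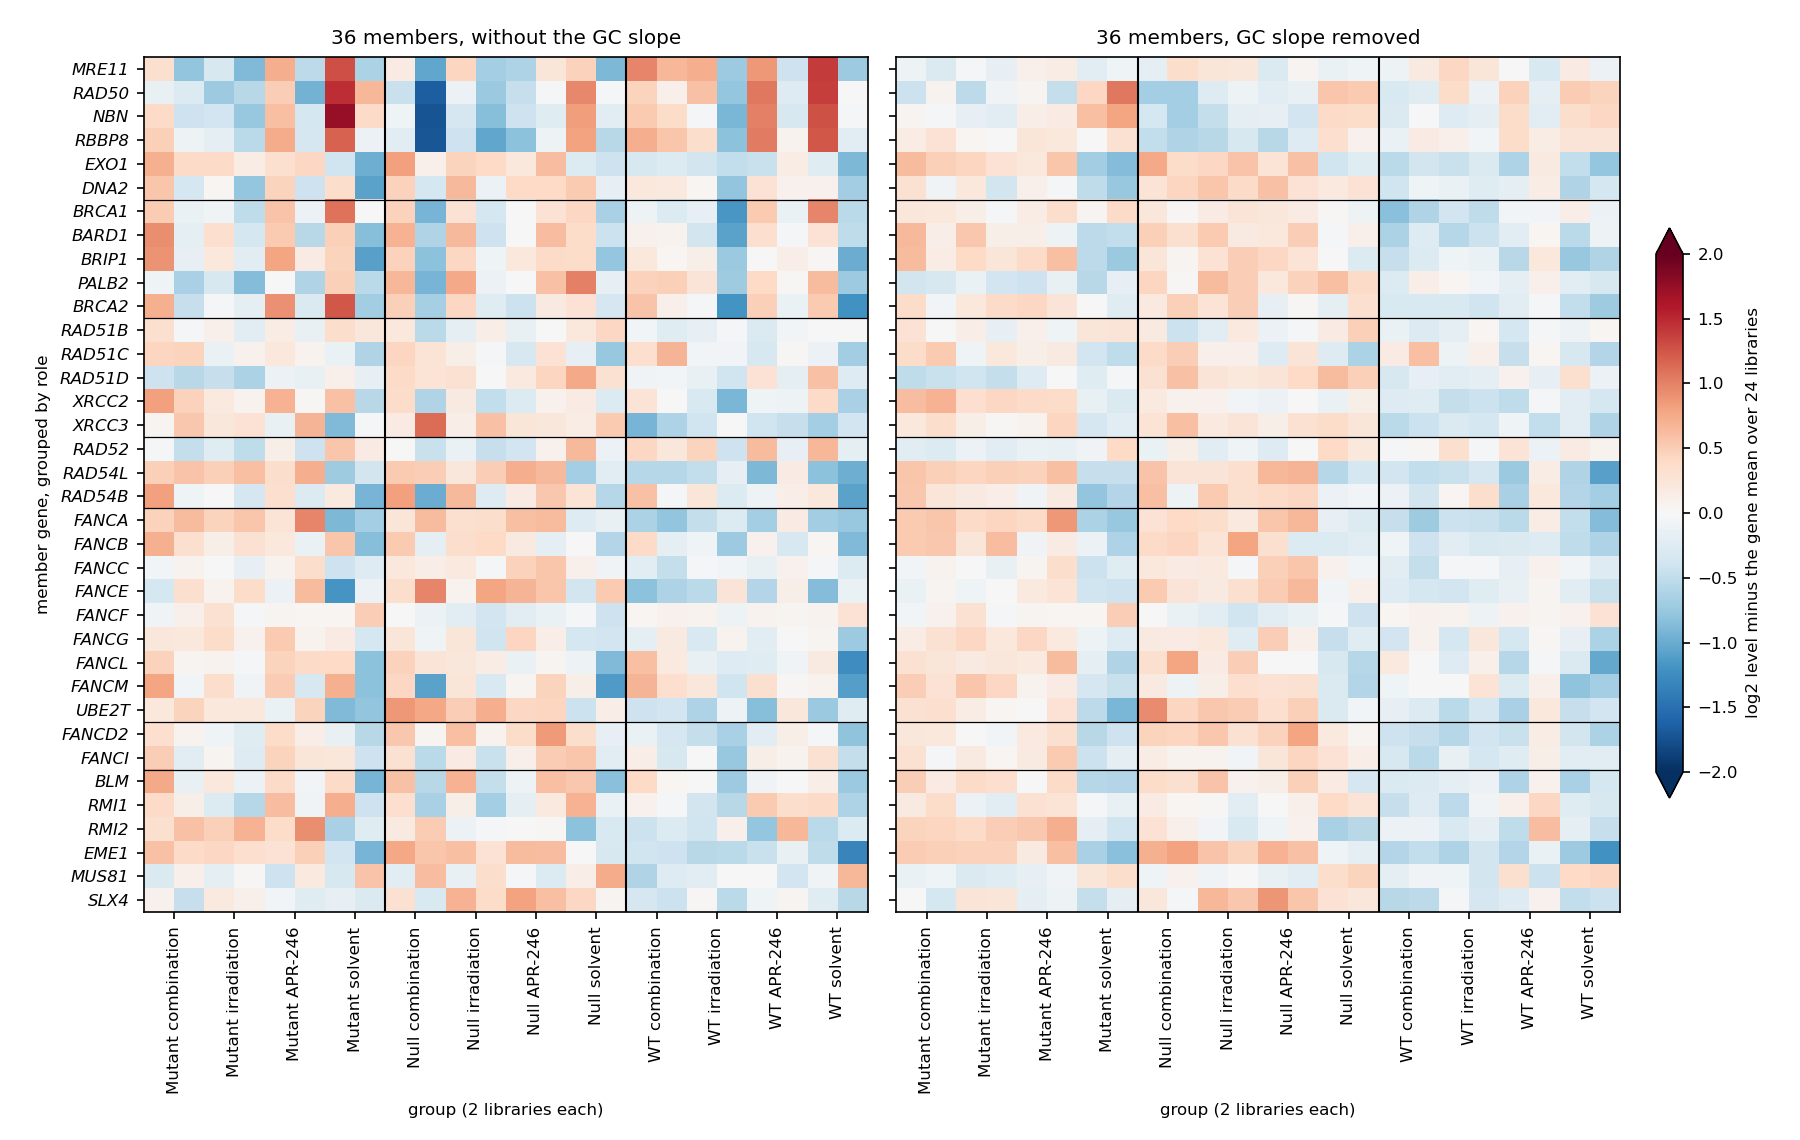
Log2 level of each member (rows, grouped by role) in each of the 24 libraries (columns, 2 per group), as the difference from the gene's mean over all libraries, TMM scaled on the left and with the library GC slope removed on the right. On the left the first solvent library of each line stands out from the second, as for NBN with 68.6 and 16.6 CPM in Mutant solvent, and on the right the paired columns are closer. The slope coefficient of each gene was fitted on these libraries, so this closeness follows in part from the fit.

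Member transcripts had a median GC content of 42.3% (36.02% in RMI1 to 63.8% in XRCC3). In the model with the slope 28 of the 36 levels fell as the library slope rose, and 8 rose. NBN, the sensor subunit of the MRE11 complex, reached 68.6 CPM in the library of lowest slope and 3.39 CPM in the library of highest slope. BRCA2, which acts at filament assembly, had 8.33 CPM and 1.07 CPM in the same libraries. FANCA, a GC-rich core subunit, had 39.4 CPM and 69.8 CPM there. These libraries, Mutant solvent library 1 and Null combination library 2, also differ in line and treatment, so the values do not isolate the slope. In CPM before TMM scaling, FANCA was higher in library 1, of lower slope, of each solvent group, as with 39.4 and 29.2 CPM in Mutant.

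**Figure D2:**
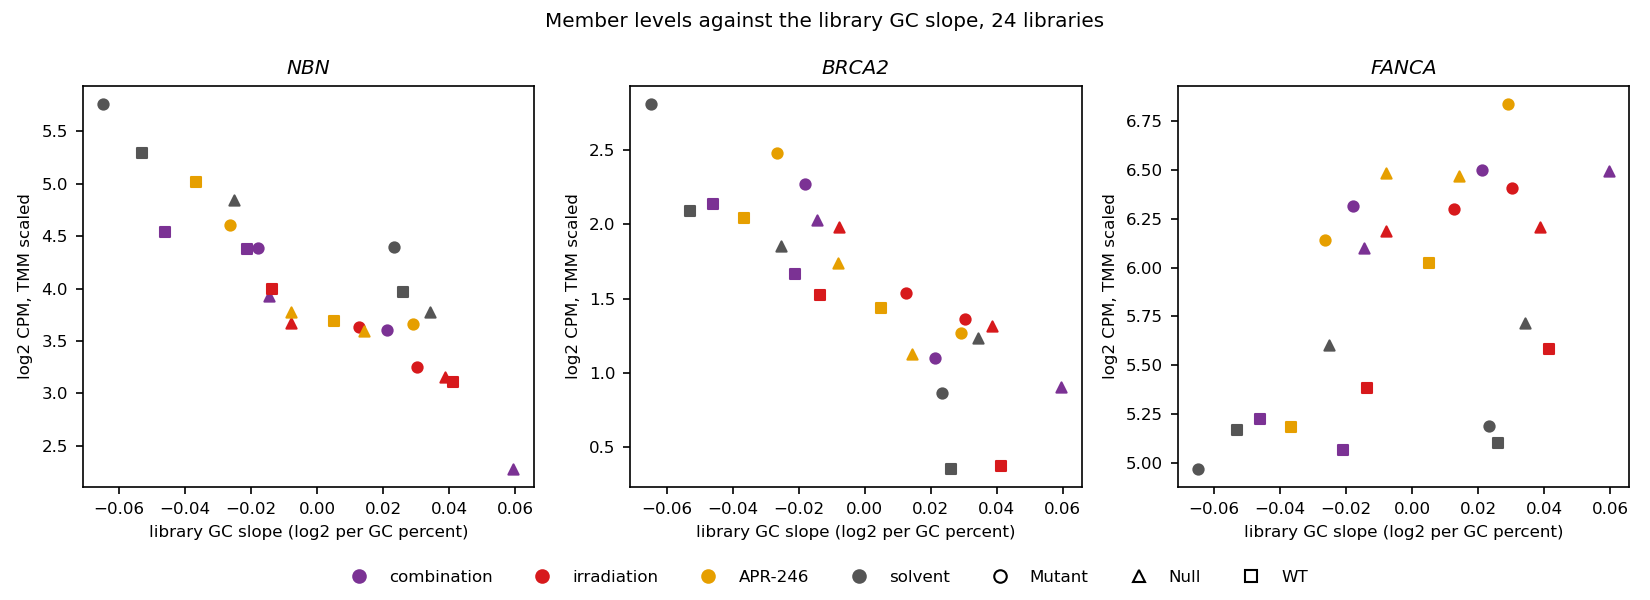
Log2 TMM-scaled CPM of NBN, BRCA2 and FANCA (vertical) against the GC slope of each of the 24 libraries (horizontal, log2 per percent GC), with colours for treatment and shapes for line. The NBN and BRCA2 points descend across the slope range from -0.0649 to 0.0595, while treated Mutant and Null libraries lie above solvent libraries for FANCA at like slope.

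Irradiation was first compared with solvent in the average over the lines, which rests on the most libraries. RAD54L, FANCA, EME1, UBE2T and EXO1 rose and NBN fell without the slope. The count is 5 of 36 higher, where 6.84% of all tested genes were called higher, and 1 lower, where 6.13% of all genes were. Members had a median log2 change of 0.11, against -0.01 over all genes. With the slope 15 members rose (18.8% of all genes did) and 5 fell (18.5% of all genes did), and the median was 0.29, against 0.03 over all genes. Calls rest on limma, with p adjusted by Benjamini-Hochberg over all 20668 genes and a threshold of 0.05.

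RAD54L, the translocase of strand exchange, moved most among the members that rose without the slope. Mutant cells had 19.9 and 16.3 CPM under the combination, 16.4 and 16.2 CPM after irradiation and 17.2 and 16.1 CPM under APR-246, against 8.74 and 7.18 CPM in solvent. Null cells had 18.9 and 12.9 CPM under the combination, 16.4 and 13.9 CPM after irradiation and 18.6 and 19.9 CPM under APR-246, against 7.70 and 7.32 CPM in solvent. WT cells had 9.26 and 8.49 CPM under the combination, 9.36 and 8.25 CPM after irradiation and 6.94 and 12.3 CPM under APR-246, against 7.64 and 4.35 CPM in solvent. Every treated Mutant and Null library lay above the solvent libraries of its line, and in WT so did the combination and irradiation libraries, while APR-246 overlapped solvent. The mean was 16.3 ± 0.176 CPM in irradiated Mutant cells and 7.96 ± 1.10 CPM in Mutant solvent cells (SD, n = 2 each). The log2 change after irradiation was 0.82 ± 0.17, adjusted p = 0.00567 in limma, and 0.71 ± 0.13, adjusted p = 0.000136 with the slope. Both calls held without any 1 of the 12 libraries.

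FANCA is the subunit most often mutated in Fanconi anemia. Its level in Mutant cells was 96.3 and 84.5 CPM under the combination, 78.8 and 76.7 CPM after irradiation and 81.3 and 94.2 CPM under APR-246, against 39.4 and 29.2 CPM in solvent. The level in Null cells was 76.7 and 69.8 CPM under the combination, 86.8 and 61.7 CPM after irradiation and 84.3 and 96.2 CPM under APR-246, against 52.6 and 38.6 CPM in solvent. The level in WT cells was 44.7 and 36.8 CPM under the combination, 47.96 and 38.1 CPM after irradiation and 41.7 and 60.8 CPM under APR-246, against 42.8 and 26.2 CPM in solvent. Treated Mutant and Null libraries all exceeded their solvent libraries, with no overlap, and each treated WT group overlapped WT solvent. The mean was 77.8 ± 1.49 CPM in irradiated Mutant cells and 34.3 ± 7.24 CPM in Mutant solvent cells (SD, n = 2 each). Its change after irradiation was 0.72 ± 0.16, adjusted p = 0.00855 (limma), and 0.62 ± 0.11, adjusted p = 0.000126 with the slope.

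EME1, the partner that activates the MUS81 nuclease, followed a like course. In Mutant cells EME1 had 20.02 and 13.4 CPM under the combination, 14.6 and 12.6 CPM after irradiation and 15.4 and 12.7 CPM under APR-246, against 10.4 and 4.43 CPM in solvent. In Null cells EME1 had 21.1 and 12.6 CPM under the combination, 20.1 and 11.2 CPM after irradiation and 16.3 and 18.2 CPM under APR-246, against 11.9 and 6.35 CPM in solvent. In WT cells EME1 had 9.81 and 8.93 CPM under the combination, 8.35 and 5.87 CPM after irradiation and 9.09 and 9.16 CPM under APR-246, against 9.03 and 3.12 CPM in solvent. The treated Mutant groups and the Null combination and APR-246 groups did not overlap solvent; Null irradiation and the WT combination and irradiation groups did. In WT the APR-246 libraries exceeded the higher solvent library by little. Its change after irradiation was 0.66 ± 0.16, adjusted p = 0.0122, and 0.77 ± 0.11, adjusted p = 1.46e-05 with the slope (limma).

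UBE2T, which passes ubiquitin to FANCD2 and FANCI, was the most abundant member per kilobase. Among Mutant libraries UBE2T had 33.2 and 30.3 CPM under the combination, 27.5 and 24.7 CPM after irradiation and 24.8 and 26.6 CPM under APR-246, against 15.98 and 10.9 CPM in solvent. Among Null libraries UBE2T had 48.95 and 31.4 CPM under the combination, 39.9 and 32.97 CPM after irradiation and 30.2 and 34.3 CPM under APR-246, against 19.05 and 19.2 CPM in solvent. Among WT libraries UBE2T had 21.2 and 19.96 CPM under the combination, 17.6 and 17.6 CPM after irradiation and 14.8 and 26.1 CPM under APR-246, against 16.6 and 15.4 CPM in solvent. Its levels were above solvent without overlap in each treated group except WT APR-246. Its change after irradiation was 0.65 ± 0.19, adjusted p = 0.0337 (limma), a call lost without any 1 of 8 of the 12 libraries (0.55 to 0.74). With the slope it was 0.50 ± 0.13, adjusted p = 0.00398.

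EXO1 is the exonuclease of long-range end resection. EXO1 in Mutant libraries stood at 23.7 and 14.4 CPM under the combination, 15.4 and 11.8 CPM after irradiation and 17.2 and 13.1 CPM under APR-246, against 11.2 and 4.59 CPM in solvent. EXO1 in Null libraries stood at 23.8 and 9.73 CPM under the combination, 19.3 and 12.99 CPM after irradiation and 12.96 and 19.6 CPM under APR-246, against 10.5 and 6.44 CPM in solvent. EXO1 in WT libraries stood at 11.2 and 10.7 CPM under the combination, 10.3 and 6.58 CPM after irradiation and 9.77 and 12.2 CPM under APR-246, against 11.8 and 4.67 CPM in solvent. The treated Mutant groups and the Null irradiation and APR-246 groups lay wholly above solvent, and the Null combination and all WT groups overlapped it. Its change after irradiation was 0.62 ± 0.18, adjusted p = 0.0311 (limma), lost without any 1 of 10 of the 12 libraries (0.51 to 0.73), and 0.74 ± 0.13, adjusted p = 8.82e-05 with the slope.

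NBN moved the other way. In Mutant cells NBN had 24.9 and 10.9 CPM under the combination, 11.97 and 8.19 CPM after irradiation and 27.8 and 10.1 CPM under APR-246, against 68.6 and 16.6 CPM in solvent. In Null cells NBN had 16.6 and 3.39 CPM under the combination, 14.7 and 7.07 CPM after irradiation and 11.1 and 14.2 CPM under APR-246, against 30.97 and 9.82 CPM in solvent. In WT cells NBN had 27.7 and 22.6 CPM under the combination, 17.9 and 6.52 CPM after irradiation and 37.2 and 11.7 CPM under APR-246, against 46.8 and 11.8 CPM in solvent. Only irradiated Mutant cells lay wholly below their solvent libraries in CPM, and in each line the first solvent library was the highest of that line. Its change after irradiation was -1.21 ± 0.37, adjusted p = 0.0418 (limma), lost without any 1 of 8 of the 12 libraries (-1.43 to -0.98). With the slope it was -0.73 ± 0.11, adjusted p = 1.47e-05, a call that held without any 1 library. Without TMM scaling NBN, EXO1 and EME1 lost their calls after irradiation in the model without the slope, and without the filter NBN, EXO1 and UBE2T did.

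**Figure D3:**
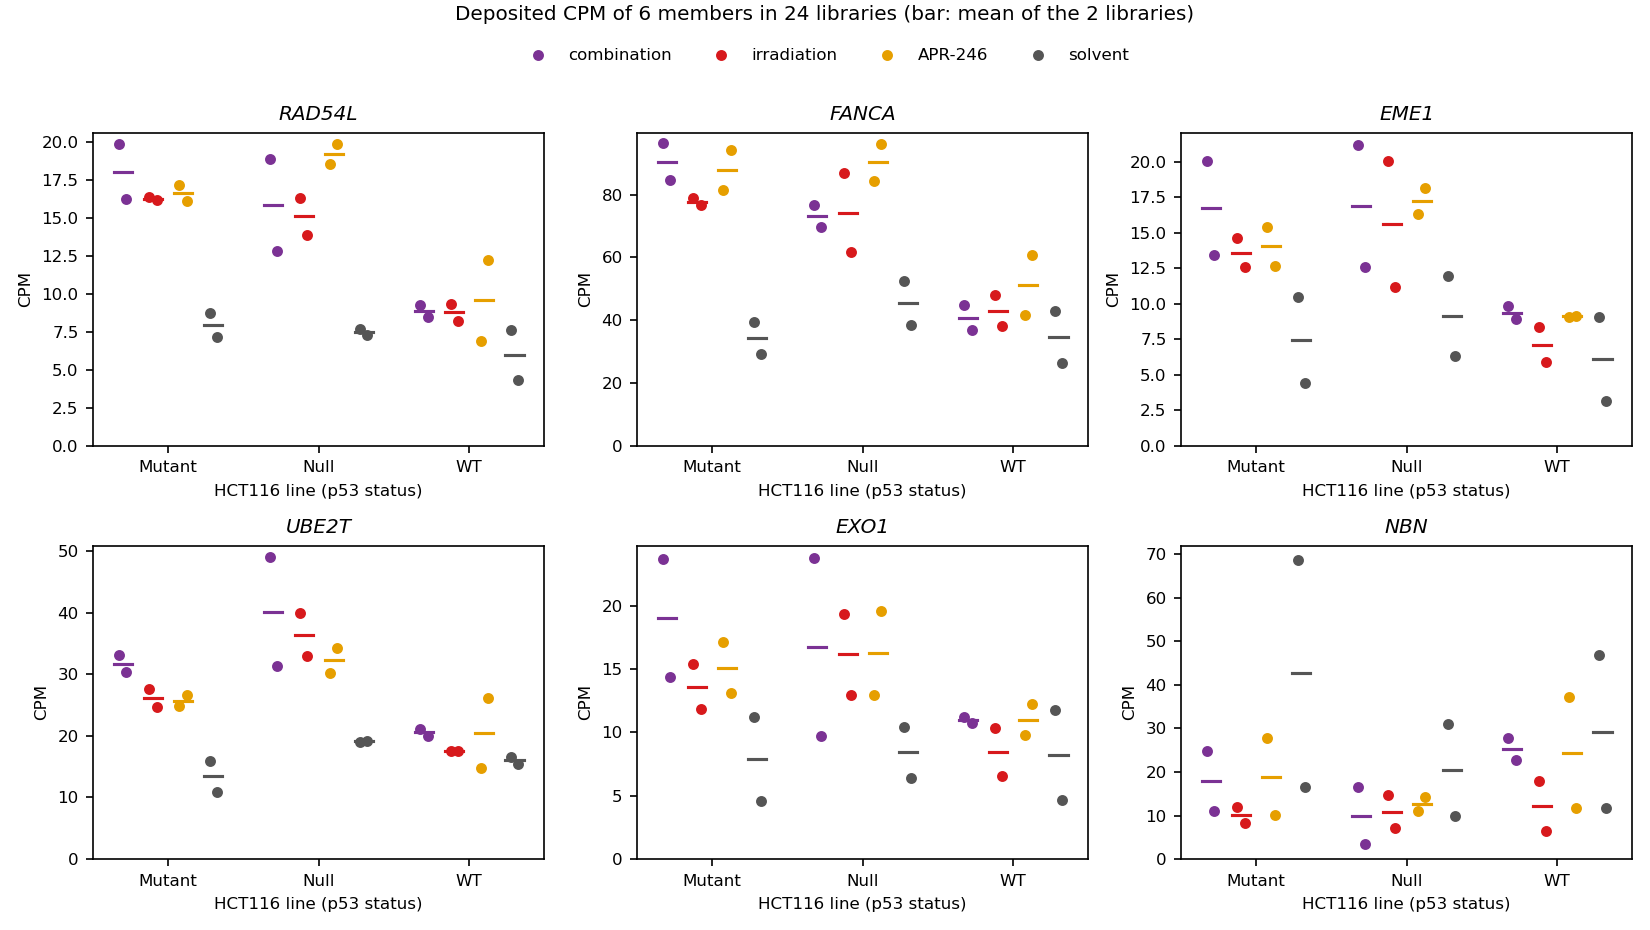
Deposited CPM (vertical) of RAD54L, FANCA, EME1, UBE2T, EXO1 and NBN in every library by line (horizontal) and treatment (colour), with library 1 left of library 2 and a bar at the mean of each pair. Treated Mutant and Null libraries of RAD54L lie between 12.9 and 19.9 CPM, above the solvent libraries at 7.18 to 8.74 CPM, and WT libraries of all groups reach 12.3 CPM at most.

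The members called after irradiation with the slope were spread over the roles. Of those that rose, only EXO1, RAD54L, FANCA, EME1 and UBE2T were also called without the slope. Of those that fell, only NBN was. The shares of all genes were 18.8% higher and 18.5% lower. Of the 6 genes of break sensing and resection, EXO1 and DNA2 (0.36 ± 0.13) rose after irradiation in the average over the lines. NBN, RAD50 (-0.70 ± 0.16) and RBBP8 (-0.34 ± 0.10), the CtIP protein that starts resection with the MRE11 complex, fell. RAD50, the ATPase of that complex, had -1.13 ± 0.36, adjusted p = 0.0501 without the slope and so missed the threshold narrowly. With the slope MRE11, its nuclease, was at 0.24 ± 0.12, adjusted p = 0.137. In that model 2 subunits of the complex fell and MRE11 was not called. A difference between the subunits was not tested. Mean MRE11 levels were 2.93 CPM in irradiated Mutant cells against 8.97 CPM in solvent. They were 5.81 against 9.09 CPM in WT and 5.07 against 4.52 CPM in Null.

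Of the 5 BRCA1 and BRCA2 complex genes, only BRIP1 rose after irradiation (0.68 ± 0.14, adjusted p = 0.000404 with the slope, limma). BRIP1 is a helicase that binds BRCA1. BRCA1 was at -0.12 ± 0.10, adjusted p = 0.341, its partner BARD1 at 0.32 ± 0.14, adjusted p = 0.0663, the bridging protein PALB2 at 0.14 ± 0.12, adjusted p = 0.377 and BRCA2 at 0.33 ± 0.13, adjusted p = 0.0569. Among the 5 paralog genes RAD51B, RAD51C, RAD51D, XRCC2 and XRCC3, which stabilise the filament, RAD51C rose (0.50 ± 0.12, adjusted p = 0.00201) and RAD51D fell (-0.31 ± 0.11, adjusted p = 0.031). RAD51B (-0.21 ± 0.14), XRCC2 (0.15 ± 0.11) and XRCC3 (0.13 ± 0.10) were not called. Of the 3 genes of strand exchange and annealing, RAD54L and its relative RAD54B (0.73 ± 0.16, adjusted p = 0.0011) rose, and the annealing protein RAD52 was at -0.26 ± 0.11, adjusted p = 0.0706.

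The 9 genes of the Fanconi core and its E2 had 5 members that rose and 0 that fell after irradiation with the slope, where 18.8% of all genes rose and 18.5% fell. FANCM, the translocase that anchors the core on chromatin, had the largest change of all members with the slope (0.81 ± 0.13, adjusted p = 3.38e-05, limma). Without the slope FANCM was not called. Its mean was 1.98 CPM in irradiated Mutant cells against 2.40 CPM in solvent. The means were 1.90 against 1.29 CPM in Null and 1.76 against 1.36 CPM in WT. With the slope FANCL, the ubiquitin ligase subunit, changed by 0.65 ± 0.15, and FANCB, which forms a subcomplex with it, by 0.62 ± 0.15. The other core subunits FANCC (0.15 ± 0.09), FANCE (0.20 ± 0.08), FANCF (-0.14 ± 0.12) and FANCG (0.39 ± 0.16) were not called. Nor were FANCD2 (0.26 ± 0.10, adjusted p = 0.0537) and FANCI (0.06 ± 0.10, adjusted p = 0.65), the pair that the core modifies.

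At the last step of the pathway, joint molecules, 4 of 6 genes rose and 1 fell after irradiation with the slope (18.8% and 18.5% of all genes). The BLM helicase changed by 0.57 ± 0.14, adjusted p = 0.00291, and RMI2, a subunit of the BLM complex, by 0.41 ± 0.14, adjusted p = 0.0246. The nuclease scaffold SLX4 changed by 0.40 ± 0.10, adjusted p = 0.00389, beside EME1. MUS81, the nuclease to which EME1 binds, fell (-0.55 ± 0.10, adjusted p = 0.000187), and RMI1 was at -0.18 ± 0.11, adjusted p = 0.207. The catalytic subunit and its partner therefore moved in opposite directions in the slope model, with MUS81 at -0.31 ± 0.22, adjusted p = 0.372 without it.

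**Figure D4:**
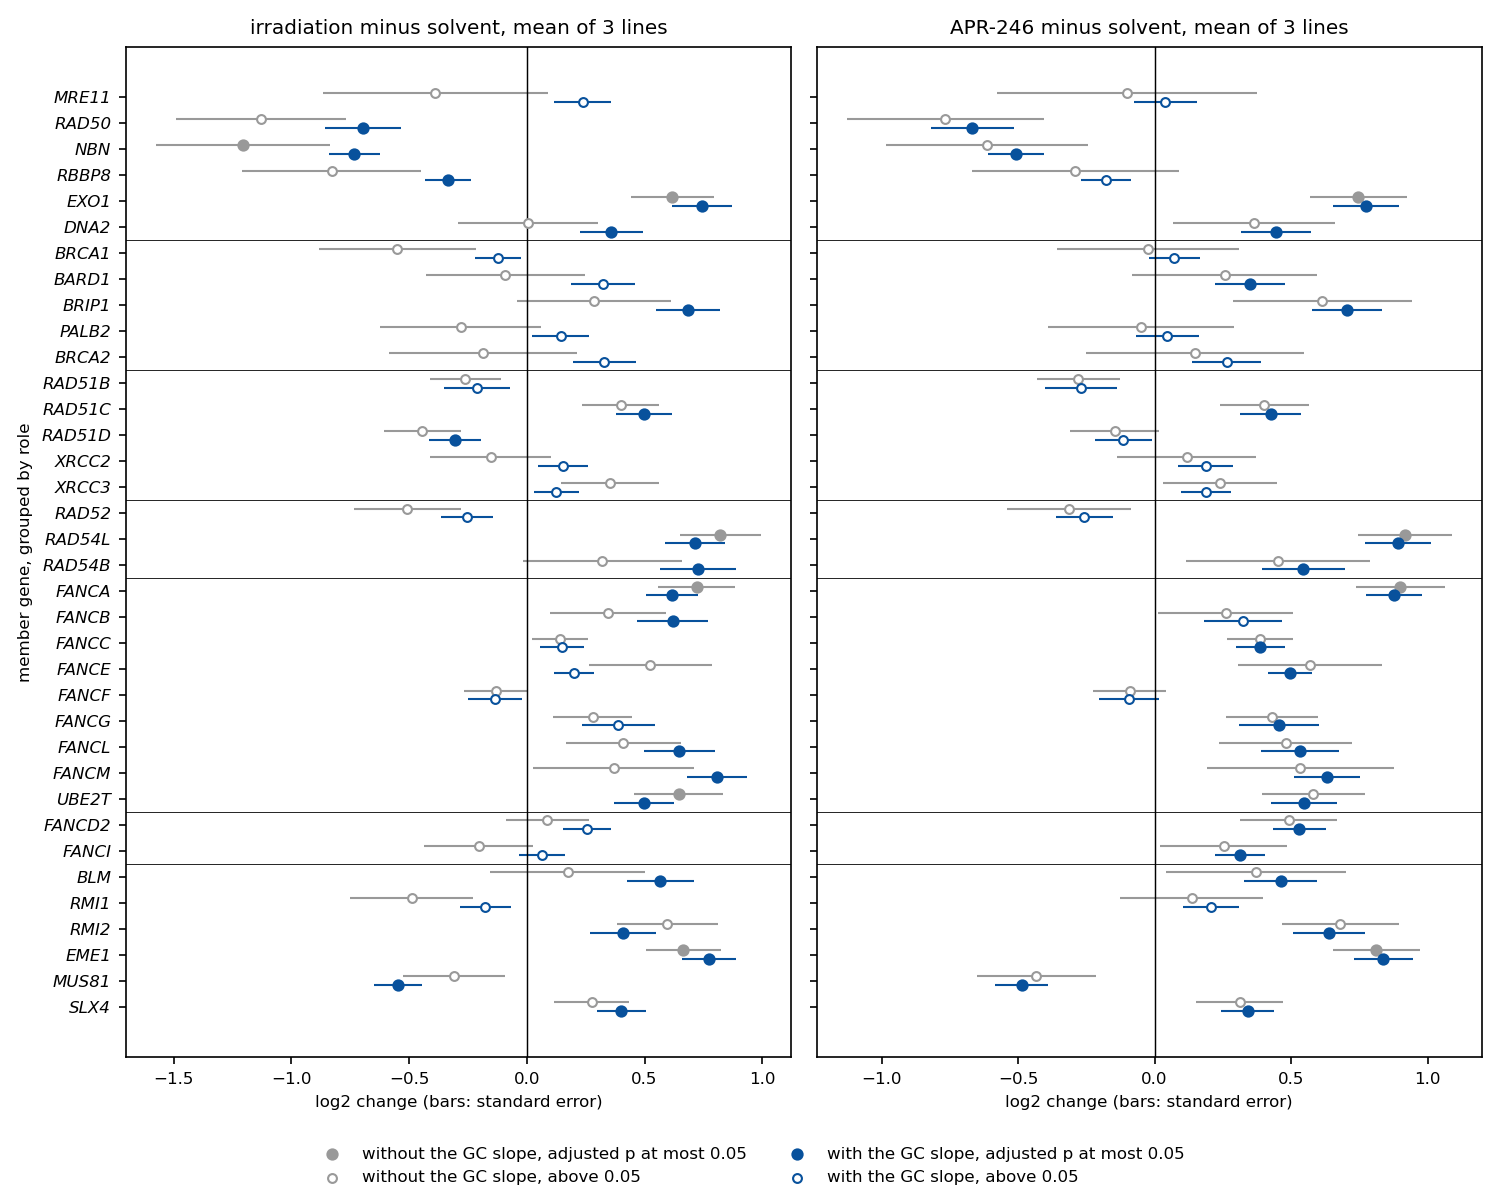
Log2 change (horizontal, bars are standard errors) of each of the 36 members for irradiation (left) and APR-246 (right) minus solvent, averaged over the lines, without the GC slope in grey and with it in blue, filled where called. Standard errors are shorter with the slope, as for NBN after irradiation with 0.37 and 0.11, and RAD54L, FANCA, EME1 and EXO1 are filled in both colours in both panels.

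Within single lines irradiation called no member without the slope, while 0.0774% of all genes in Mutant, 0.677% in Null and 1.56% in WT were called. At unadjusted p below 0.05 limma had 8 members in Mutant (13.1% of all genes), 4 in Null (11.8%) and 0 in WT (12.2%). edgeR called 0 in each line, where it called 0.0145%, 0.0871% and 0.484% of all genes. DESeq2 called 3, 0 and 0, where it called 2.89%, 3.55% and 3.98% of all genes. The 4 members in Null were near the share of all genes, and WT was below it. The largest values were RAD50 (-1.71 ± 0.63), NBN (-1.64 ± 0.64) and FANCA (1.28 ± 0.28, adjusted p = 0.0745) in Mutant. They were NBN (-0.90 ± 0.64), RAD50 (-0.89 ± 0.63) and RBBP8 (-0.85 ± 0.66) in Null, and NBN (-1.08 ± 0.64), BRCA1 (-0.89 ± 0.58) and RAD50 (-0.79 ± 0.63) in WT.

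With the slope irradiated Mutant cells had 14 members higher (5.71% of all genes) and 3 lower (7.78%). Irradiated Null cells had 7 higher (9.1% of all genes) and 2 lower (10.9%). Irradiated WT cells had 2 higher (9.07% of all genes) and 2 lower (8.99%). The members' median log2 change was 0.47 in Mutant, 0.31 in Null and 0.11 in WT, against 0.01, 0.01 and 0.03 over all genes. Over 17 proliferation genes it was 0.57, 0.61 and -0.01 in the same comparisons. In WT the share of members called higher was below the share of all genes.

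In irradiated Mutant cells EME1 (1.20 ± 0.19, adjusted p = 0.000546), EXO1 (1.15 ± 0.22) and FANCA (1.11 ± 0.19) rose most in limma with the slope, followed by BRIP1 (0.95), BLM (0.94), RAD54L (0.91) and FANCM (0.88). RAD54B, BARD1, UBE2T, FANCB, RMI2, XRCC2 and SLX4 rose by 0.58 to 0.84. RAD50 (-1.02), NBN (-0.89) and MUS81 (-0.57) fell. In CPM the irradiated Mutant mean lay below solvent for BRIP1, BLM, FANCM, RAD54B, BARD1, FANCB and XRCC2. It lay above solvent for the other members called higher there. The count of 17 called members was 1 without Mutant solvent library 2 and 11 at most without any other library. In irradiated Null cells EXO1 (0.81 ± 0.21, adjusted p = 0.00875), FANCL (0.78), FANCB (0.78), RAD54L (0.77), UBE2T (0.69), FANCM (0.66) and EME1 (0.64) rose, and NBN (-0.71) and RBBP8 (-0.65) fell. That count of 9 was 2 or 3 without any 1 library. In irradiated WT cells FANCM (0.88 ± 0.21, adjusted p = 0.00567) and RAD54B (0.83 ± 0.27, adjusted p = 0.0345) rose, and MUS81 (-0.64) and NBN (-0.60) fell. That count of 4 was 0 without WT solvent library 2.

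FANCM rose and NBN fell in all 3 lines after irradiation with the slope. The difference of the irradiation response between lines was tested directly: 0 members differed in Mutant minus WT and 0 in Null minus WT without the slope (0.0387% and 0.029% of all genes), and 0 and 0 with it (0.59% and 1.11% of all genes). In limma 1 and 0 members had an unadjusted p below 0.05 without the slope (2.81% and 3.02% of all genes) and 6 and 2 with it (10.02% and 12.6%), and edgeR and DESeq2 called 0 members. Of all genes edgeR called 0% and 0%, and DESeq2 0.0387% and 0.0968%. The largest differences without the slope were FANCA (0.93 ± 0.40), RAD50 (-0.91 ± 0.88) and UBE2T (0.91 ± 0.46) in Mutant minus WT. In Null minus WT they were BRCA1 (0.97 ± 0.82), BARD1 (0.76 ± 0.83) and FANCB (0.65 ± 0.61). The larger counts in Mutant are thus not shown to be a difference between lines.

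APR-246 alone was set against the same solvent libraries as irradiation, so the 2 comparisons are not independent. In the average over the lines RAD54L, FANCA, EME1 and EXO1 rose without the slope and 0 members fell, which is 4 of 36 higher, where 1.19% of all genes were called higher and 1.96% lower. RAD54L changed by 0.92 ± 0.17, adjusted p = 0.0102, FANCA by 0.90 ± 0.16, adjusted p = 0.00843, EME1 by 0.81 ± 0.16, adjusted p = 0.0121 and EXO1 by 0.75 ± 0.18, adjusted p = 0.0309 (limma). Without Mutant APR-246 library 2 the count was 1 (FANCA), and without WT APR-246 library 1 it was 6. EXO1 lost its call without any 1 of 9 of the 12 libraries (0.64 to 0.86), without TMM scaling and without the filter. EME1 lost its call without TMM scaling or without library 2 of APR-246 in Mutant or in Null, and RAD54L without Mutant APR-246 library 2. The members' median was 0.29, against -0.01 over all genes.

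With the slope 20 members rose (13.5% of all genes) and 3 fell (13.9%) in the average over the lines, with a median of 0.35, against 0.001 over all genes. The Fanconi core and its E2 had 7 of 9 higher, against 13.5% of all genes: FANCA (0.88 ± 0.10, adjusted p = 1.53e-05), FANCM (0.63), UBE2T (0.55), FANCL (0.53), FANCE (0.50), FANCG (0.46) and FANCC (0.39). FANCD2 (0.53 ± 0.10, adjusted p = 0.000345) and FANCI (0.31 ± 0.09, adjusted p = 0.013) both rose, so the 2 targets of the core were called under APR-246. RAD54L (0.89 ± 0.12, adjusted p = 3.35e-05), RAD54B (0.54), RAD51C (0.43), BRIP1 (0.71) and BARD1 (0.35) rose among the BRCA, paralog and strand exchange groups, and EXO1 (0.78) and DNA2 (0.44) among resection genes. EME1 (0.84), RMI2 (0.64), BLM (0.46) and SLX4 (0.34) rose among joint molecule genes. RAD50 (-0.67 ± 0.15, adjusted p = 0.00216), NBN (-0.51 ± 0.10, adjusted p = 0.000727) and MUS81 (-0.49 ± 0.10, adjusted p = 0.000636) fell. BRCA1 was at 0.07 ± 0.09, adjusted p = 0.621 and BRCA2 at 0.26 ± 0.13, adjusted p = 0.129.

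By line, APR-246 called 0 members without the slope in Mutant, Null and WT (0%, 0.131% and 0% of all genes). Unadjusted p was below 0.05 for 7, 6 and 1 members in limma, and for 7.34%, 8.69% and 2.69% of all genes. edgeR called 0 members in each line, where it called 0%, 0.0194% and 0% of all genes. DESeq2 called 2, 1 and 0, where it called 0.489%, 2.21% and 0% of all genes. The largest values were FANCA (1.41 ± 0.28, adjusted p = 0.25), RAD50 (-1.30) and RMI2 (1.10) in Mutant, RAD54L (1.13 ± 0.30, adjusted p = 0.134), FANCA (0.82) and EME1 (0.78) in Null, and FANCM (0.69 ± 0.59, adjusted p = 1), EME1 (0.62) and RMI1 (0.56) in WT. With the slope Mutant had 13 higher (3.31% of all genes) and 1 lower (3.43%). Null had 8 higher (6.85% of all genes) and 3 lower (8.22%), and WT had 0 (0% of all genes; 12 members and 12.5% of all genes at unadjusted p below 0.05).

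In Mutant cells under APR-246 FANCA (1.32 ± 0.18, adjusted p = 0.00288), EXO1 (1.17), EME1 (1.13), BRIP1 (1.13), RAD54L (0.99), RMI2 (0.94), UBE2T (0.87), FANCD2 (0.74) and FANCI (0.66) rose with the slope, as did FANCE, XRCC2, FANCC and XRCC3 by 0.53 to 0.64, and RAD50 fell (-0.94). In Null cells RAD54L (1.14 ± 0.21, adjusted p = 0.00131), FANCA (0.82), EME1 (0.78), EXO1 (0.75), FANCM (0.74) and FANCE (0.55) rose, with FANCD2 and FANCC at about 0.50 each, and NBN (-0.66), RBBP8 (-0.61) and MUS81 (-0.57) fell. The Mutant count of 14 was 0 without Mutant solvent library 2 and 15 without Mutant APR-246 library 1. The Null count of 11 was 3 to 6 without any 1 library, and the WT count was 13 without WT APR-246 library 1. In WT cells that library and library 2 were far apart for RAD54L at 6.94 and 12.3 CPM.

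FANCD2, the ubiquitin target that marks stalled forks, showed the spread between libraries plainly. Mutant libraries of FANCD2 held 29.7 and 19.05 CPM under the combination, 18.2 and 14.7 CPM after irradiation and 29.05 and 17.5 CPM under APR-246, against 22.3 and 10.5 CPM in solvent. Null libraries of FANCD2 held 31.9 and 15.6 CPM under the combination, 35.3 and 17.02 CPM after irradiation and 24.02 and 37.8 CPM under APR-246, against 27.1 and 12.8 CPM in solvent. WT libraries of FANCD2 held 21.4 and 16.98 CPM under the combination, 15.9 and 9.76 CPM after irradiation and 19.3 and 19.7 CPM under APR-246, against 22.8 and 8.45 CPM in solvent. Treated and solvent libraries overlapped in CPM in every line. With the slope removed the log2 level was 4.51 and 4.62 under APR-246 in Mutant, against 3.76 and 3.90 in solvent. The coefficient removed was fitted on these same libraries and draws those of a group together. The lack of overlap is therefore not separate support.

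BLM, the helicase that dissolves double Holliday junctions, overlapped likewise. Mutant libraries of BLM held 13.1 and 5.21 CPM under the combination, 7.25 and 5.16 CPM after irradiation and 9.57 and 4.93 CPM under APR-246, against 10.5 and 2.44 CPM in solvent. Null libraries of BLM held 10.7 and 3.17 CPM under the combination, 12.3 and 3.62 CPM after irradiation and 5.50 and 10.4 CPM under APR-246, against 10.1 and 2.41 CPM in solvent. WT libraries of BLM held 10.04 and 7.12 CPM under the combination, 7.23 and 2.84 CPM after irradiation and 6.80 and 5.88 CPM under APR-246, against 8.22 and 2.72 CPM in solvent. With the slope removed irradiated Mutant libraries were at 3.13 and 3.07 on the log2 scale, against 2.17 and 2.16 in solvent.

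The combination was compared with solvent within each line. Without the slope it called 0 members in Mutant (0.348% of all genes), 0 in Null (1.95%) and 0 in WT (2.23%). In limma 7, 8 and 2 members had an unadjusted p below 0.05 in Mutant, Null and WT, where 11.8%, 15.1% and 13.8% of all genes did, so the WT count was below the share of all genes. edgeR called 0 members in each line, where it called 0.0145%, 0.503% and 1.27% of all genes. DESeq2 called 5, 1 and 1, where it called 3.06%, 5.44% and 4.83% of all genes. The largest values were FANCA (1.33 ± 0.28, adjusted p = 0.0565), RAD50 (-1.28) and EXO1 (1.24 ± 0.31, adjusted p = 0.0934) in Mutant. They were RAD50 (-1.51), NBN (-1.21) and RBBP8 (-1.09) in Null, and FANCM (1.02), FANCL (0.93) and RAD51C (0.91 ± 0.28, adjusted p = 0.118) in WT.

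With the slope Mutant cells under the combination had 17 members higher (7.69% of all genes) and 2 lower (8.81%), the most of any line and treatment. Null cells had 8 higher (10.9% of all genes) and 3 lower (13.7%), and WT cells 3 higher (11.2% of all genes) and 4 lower (10.5%). In Mutant EXO1 (1.34 ± 0.21, adjusted p = 0.000348), FANCA (1.24), EME1 (1.23), RAD54B (1.08), UBE2T (1.04), BRIP1 (1.02), RAD54L (0.97), BLM (0.91) and BARD1 (0.90) rose most, and RAD50 (-0.91) and NBN (-0.69) fell. The other 8 that rose there were FANCB, RAD51C, XRCC2, FANCM, DNA2, RMI2, FANCD2 and XRCC3, at 0.56 to 0.90. In Null FANCL (1.01 ± 0.25, adjusted p = 0.00494), EME1 (0.89), EXO1 (0.89), RAD54L (0.88), RAD51C (0.88), UBE2T (0.86), RMI2 (0.79) and FANCA (0.57) rose, and RAD50 (-1.22), NBN (-0.89) and RBBP8 (-0.76) fell. In WT RAD51C (0.83 ± 0.20, adjusted p = 0.00411), FANCL (0.75) and FANCM (0.69) rose, and RAD50 (-0.75), BRCA1 (-0.73 ± 0.16, adjusted p = 0.00264), MUS81 (-0.54) and NBN (-0.53) fell. The Mutant count of 19 was 3 without Mutant solvent library 2, and the WT count of 7 was 1 to 3 without any 1 library.

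RAD51C, which is also a Fanconi gene, rose under the combination in all 3 lines with the slope. Mutant cells gave RAD51C levels of 32.8 and 25.7 CPM under the combination, 18.2 and 19.3 CPM after irradiation and 26.9 and 17.3 CPM under APR-246, against 23.1 and 10.5 CPM in solvent. Null cells gave RAD51C levels of 30.6 and 18.7 CPM under the combination, 26.1 and 16.3 CPM after irradiation and 15.2 and 26.2 CPM under APR-246, against 19.5 and 8.59 CPM in solvent. WT cells gave RAD51C levels of 30.5 and 35.8 CPM under the combination, 22.2 and 15.4 CPM after irradiation and 18.5 and 18.99 CPM under APR-246, against 22.1 and 9.44 CPM in solvent. In CPM the combination libraries lay above solvent in Mutant and WT and overlapped it in Null. On the log2 scale with the slope removed they stood at 4.71 and 4.88 in Mutant, 4.73 and 4.84 in Null and 4.51 and 4.95 in WT, against 3.97 and 3.84, 4.10 and 3.72 and 4.03 and 3.76 in solvent.

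BRCA1, the ubiquitin ligase that favours recombination over end joining, fell under the combination in WT with the slope and was not called in Mutant or Null. Mutant BRCA1 libraries read 16.8 and 8.16 CPM under the combination, 9.01 and 5.97 CPM after irradiation and 16.9 and 7.25 CPM under APR-246, against 26.6 and 7.82 CPM in solvent. Null BRCA1 libraries read 15.1 and 3.74 CPM under the combination, 14.1 and 6.17 CPM after irradiation and 9.15 and 12.7 CPM under APR-246, against 14.2 and 4.37 CPM in solvent. WT BRCA1 libraries read 10.7 and 8.75 CPM under the combination, 9.80 and 3.20 CPM after irradiation and 16.2 and 8.17 CPM under APR-246, against 23.3 and 4.99 CPM in solvent. In CPM every treated group overlapped its solvent group. With the slope removed the WT combination libraries stood at 2.49 and 2.72, below WT solvent at 3.46 and 3.21 on the log2 scale. Null combination libraries stood at 3.56 and 3.36, against 3.35 and 3.22 in Null solvent. The combination response was compared between lines after these values had been seen. With the slope 1 member, BRCA1, differed in Null minus WT (0.90 ± 0.23, adjusted p = 0.0422, limma; 2.01% of all genes), a call lost with slope and replicate block together and without any 1 of 7 of the 8 libraries. In Mutant minus WT 1 member, FANCA, differed (1.15 ± 0.26, adjusted p = 0.0267, limma; 1.14% of all genes), a call lost without any 1 of 6 of the 8 libraries.

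BRCA2 was among the lowest members per kilobase and was called in none of the comparisons of a treatment with solvent run here. Mutant BRCA2 libraries read 5.27 and 1.54 CPM under the combination, 2.42 and 1.88 CPM after irradiation and 5.91 and 1.58 CPM under APR-246, against 8.33 and 1.07 CPM in solvent. Null BRCA2 libraries read 4.05 and 1.07 CPM under the combination, 4.14 and 1.68 CPM after irradiation and 1.61 and 3.06 CPM under APR-246, against 3.42 and 1.37 CPM in solvent. WT BRCA2 libraries read 4.74 and 2.98 CPM under the combination, 2.76 and 0.639 CPM after irradiation and 4.20 and 2.08 CPM under APR-246, against 4.54 and 0.603 CPM in solvent. In each line treated and solvent libraries overlapped.

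**Figure D5:**
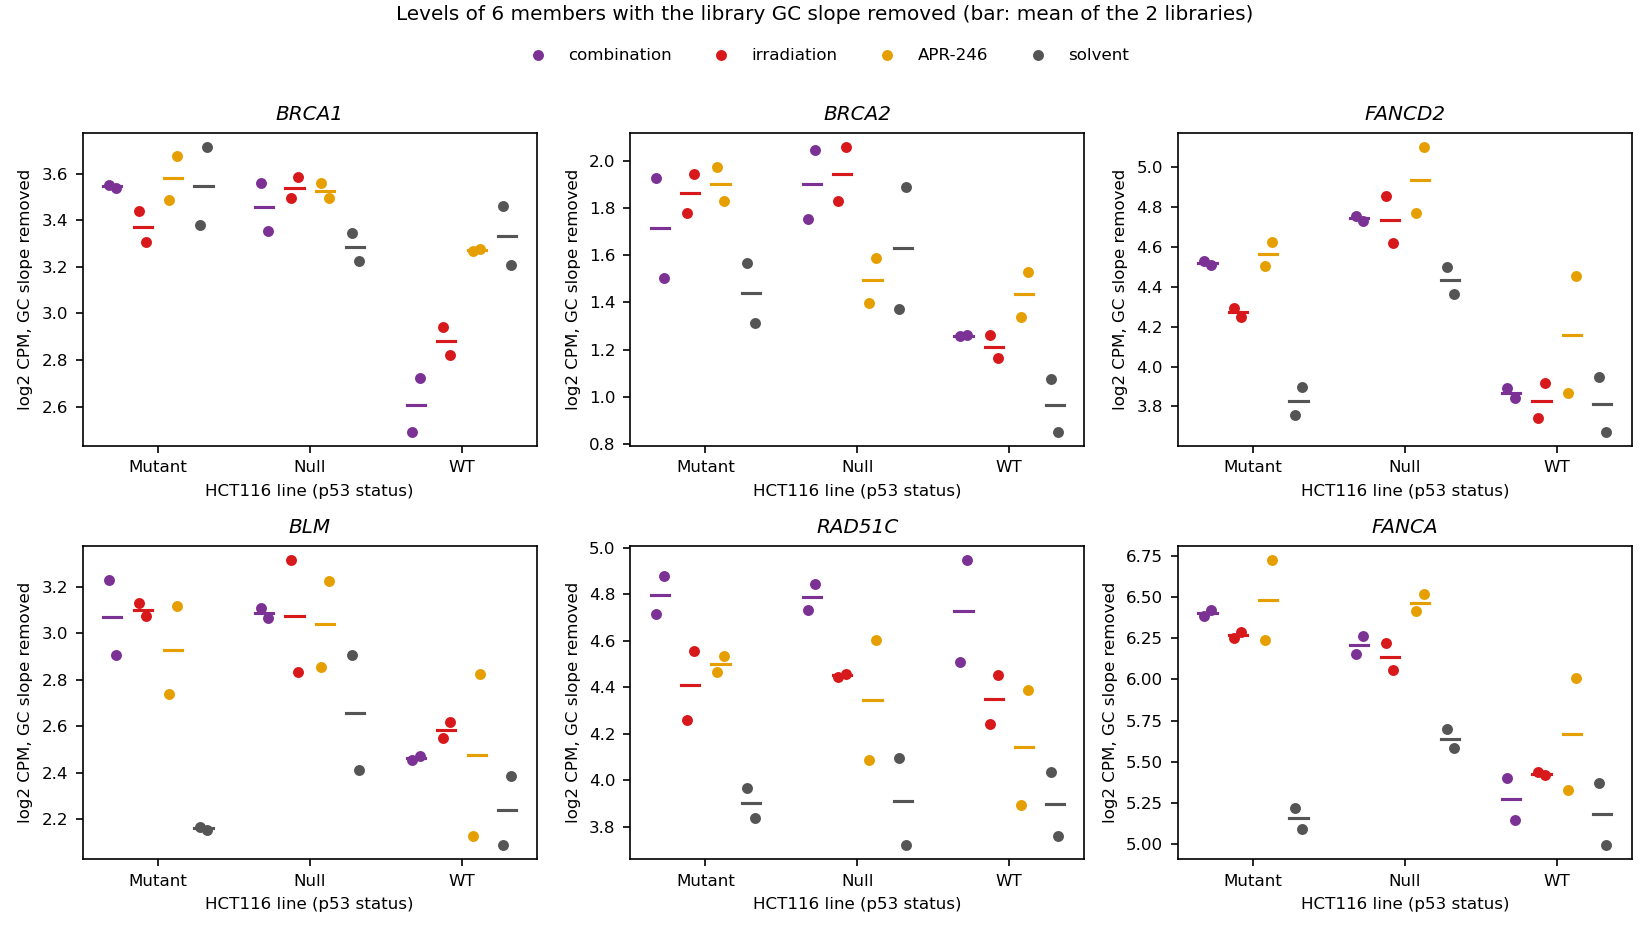
Log2 level with the library GC slope removed (vertical) of BRCA1, BRCA2, FANCD2, BLM, RAD51C and FANCA in every library by line (horizontal) and treatment (colour), with library 1 left of library 2 and a bar at the mean of each pair. The WT combination libraries of BRCA1 lie at 2.49 and 2.72, below WT solvent at 3.46 and 3.21, and Mutant FANCA libraries lie at 6.24 to 6.72 when treated and at 5.22 and 5.10 in solvent.

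Adding APR-246 to irradiation was read from the combination minus irradiation. Without the slope 0 members were called in Mutant (0% of all genes), Null (0%), WT (0%) and the average over the lines (0%), with 0, 0, 0 and 1 members at unadjusted p below 0.05 in limma (1.96%, 1.67%, 4.11% and 6.00% of all genes) and 0 members called by edgeR and by DESeq2. Of all genes edgeR called 0% in each of these comparisons, and DESeq2 0%, 0%, 0.00484% and 0.0677%. The largest values in the average were RAD51C (0.44 ± 0.16, adjusted p = 0.777), XRCC2 (0.43) and RMI1 (0.43). By line they were RMI1 (0.67), RBBP8 (0.56) and NBN (0.56) in Mutant, RAD50 (-0.62), SLX4 (-0.53) and PALB2 (-0.45) in Null, and BRCA2 (0.95), NBN (0.91) and RBBP8 (0.87) in WT. With the slope 0 members were called in each line (0%, 0% and 0% of all genes; 2, 1 and 0 members and 7.83%, 7.76% and 11.8% of all genes at unadjusted p below 0.05). SLX4 fell in the average (-0.43 ± 0.10, adjusted p = 0.0248, limma), which is 1 of 36 lower, where 2.25% of all genes were. That call was lost without any 1 of 8 of the 12 libraries (-0.48 to -0.36) and with the replicate block.

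Between the lines in solvent 0 members were called without the slope in Mutant minus WT (0.629% of all genes; 0 members and 5.81% of all genes at unadjusted p below 0.05) or in Null minus WT (0.992%; 3 members and 7.31% at unadjusted p below 0.05), and edgeR and DESeq2 called 0. Of all genes edgeR called 0.411% and 0.798%, and DESeq2 1.35% and 2.25%. BRCA2 (0.62 ± 0.69), FANCM (0.46 ± 0.59) and NBN (0.44 ± 0.64) had the largest values in Mutant minus WT, and XRCC3 (0.87 ± 0.36), EME1 (0.76 ± 0.27) and SLX4 (0.64 ± 0.27) in Null minus WT. With the slope 0 members were called in Mutant minus WT (5.09% of all genes; 1 member and 16.4% of all genes at unadjusted p below 0.05). In Null minus WT 7 were higher (4.34% of all genes) and 0 lower: EME1 (0.83 ± 0.19, adjusted p = 0.00537), PALB2 (0.76), SLX4 (0.72), XRCC3 (0.72), DNA2 (0.71), FANCD2 (0.62) and RMI1 (0.61). That count was 0 without WT solvent library 2 and 4 at most without any other 1 library.

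Other genes of the pathway were read from a list of 51, of which 50 were tested. After irradiation in the average over the lines 3 were higher and 2 lower without the slope (median -0.15), where 6.84% and 6.13% of all genes were, and 14 higher and 8 lower with it (median 0.06), where 18.8% and 18.5% were. Under APR-246 the counts were 1 and 1 without the slope (median 0.04), where 1.19% and 1.96% of all genes were called, and 14 and 6 with it (median 0.10), where 13.5% and 13.9% were. The largest changes after irradiation with the slope were in ZSWIM7, known to act in recombination, which fell (-0.85 ± 0.10, adjusted p = 1.13e-06), and in EME2 (0.80 ± 0.27), a second partner of MUS81, and the polymerase POLQ (0.68 ± 0.15), which both rose. Without the slope the largest values were in CENPX (1.07 ± 0.37, adjusted p = 0.0677), USP1 (-1.03 ± 0.33) and WRN (-0.91 ± 0.44), and none of these passed. Under APR-246 the largest changes with the slope were in CENPX (0.95 ± 0.15), ZSWIM7 (-0.65 ± 0.10) and RPA1 (0.64 ± 0.10), and all were called. Of 18 end joining genes, the competing route of break repair, 1 was higher and 5 lower after irradiation with the slope (18.8% and 18.5% of all genes), and 2 higher and 4 lower under APR-246 (13.5% and 13.9%).

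Proliferation genes moved beside the members. The list of 17 such genes, MKI67, PCNA and the MCM helicase subunits among them, had 10 higher and 0 lower after irradiation with the slope in the average over the lines (18.8% and 18.5% of all genes), and 15 higher and 0 lower under APR-246 (13.5% and 13.9%). Under the combination its median log2 change with the slope was 0.96 in Mutant, 0.80 in Null and 0.06 in WT, next to 0.51, 0.23 and 0.05 for the members. Its summed level was 2925 to 3162 CPM in irradiated Mutant, 2982 to 3098 CPM in irradiated Null and 1523 to 1898 CPM in irradiated WT libraries, against 1665 to 1734, 1741 to 1800 and 1449 to 1452 CPM in solvent. The part of proliferation in the members' changes was not tested.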

How the data were processed

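RNA was extracted with TRIzol, selected with oligo(dT) and sequenced in paired 100-base reads on a BGIseq500, per the labels' protocols. FastQC, STAR, featureCounts from Subread and the build GRCh38.p13 are named in the submitters' processing notes; versions, annotation release and strand setting are not given in the sources used here. The deposited values are CPM (read counts scaled to the reads assigned to genes) as the authors made them, without further scaling. In each library 100% of the values were whole multiples of 1 read within 0.05 reads, so read counts were recovered. Among values of 2 to 9 reads 74.5 to 81.5% were even, so both reads of a pair may have been counted. Fragments would then be fewer than reads, and floors and tests on read counts could understate counting error. The floors cover no other error.

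CPM were scaled by TMM (edgeR 4.0.16), filtered to 20668 genes with a count minimum of 10, and fitted as log2(CPM + 0.5) with limma 3.58.1 (trend, robust; R 4.3.3) over all 12 groups, with 12 residual degrees of freedom. Fold changes are on that log2 scale, which understates those of low genes, and are given ± SE. A second model added each library's GC slope, taken over 10736 genes. Levels with the slope removed use each gene's own coefficient from that model, which rests on differences within groups. Libraries of a group are drawn closer by this fit, so gaps between groups in these levels are not separate support. GC content was known for 98.3% of tested genes. P-values are two-sided and Benjamini-Hochberg adjusted over all tested genes. Averages over the lines weight Mutant, Null and WT equally.

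edgeR's quasi-likelihood test and DESeq2 1.42.0 were run on the recovered read counts. edgeR called 1261 genes higher and 1197 lower after irradiation in the average over the lines, and 271 and 323 under APR-246. Other alternatives left out the TMM scaling, the filter or 1 library, used a pseudocount of 1, fitted only the lines compared, or added the replicate number as a block.

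Members and lists were chosen with earlier results of these data known. All 36 members are named by role. In each comparison the members called without the slope, or the 3 with the largest change where fewer than 3 were called, and up to 10 called with the slope are given. Values in every library are given for BRCA1, BRCA2, FANCD2, RAD51C, RAD54L, EXO1, BLM, UBE2T, NBN, FANCA and any other member called without the slope, and some further called members are named to complete their counts. Some genes of the lists are not reported here.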

Additional observations from a re-analysis of the deposited data

Results flagged for a closer look

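A pair of members was called for a different response to the combination between lines in the model with the GC slope. The test was of the difference itself (limma, Benjamini-Hochberg over all 20668 genes), a comparison added after the data were seen. The count was 1 of 36 members in each difference, where 1.14% of all genes were called in Mutant minus WT and 2.01% in Null minus WT. A single call is not read as a result about the members. The change of FANCA was larger in Mutant than in WT cells, by 1.15 ± 0.26, adjusted p = 0.0267. Its combination libraries had 96.3 and 84.5 CPM in Mutant, against 39.4 and 29.2 CPM in solvent, and 44.7 and 36.8 CPM in WT, against 42.8 and 26.2 CPM in solvent. Without the slope the difference was 1.32 ± 0.40, adjusted p = 0.816. With the slope it ran from 0.88 to 1.34 when 1 of the 8 libraries was left out, and the call was lost in 6 of these 8 fits. BRCA1 differed in Null minus WT by 0.90 ± 0.23, adjusted p = 0.0422, from a fall in WT (-0.73 ± 0.16) beside 0.17 ± 0.16 in Null. Without the slope that difference was 0.29 ± 0.82, adjusted p = 0.955. With the slope and 1 library left out it ran from 0.71 to 1.03, and the call was lost in 7 of 8 fits. It was also lost with slope and replicate block together, where the difference was 0.89.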

How the results depend on the processing

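The GC slope moved the counts of called members most. Without it 0 members were called in each line, and with it 17, 9 and 4 were called after irradiation, 14, 11 and 0 under APR-246 and 19, 11 and 7 under the combination in Mutant, Null and WT. In the averages over the lines it gave 20 for irradiation, 23 for APR-246 and 1 for combination minus irradiation, and 7 in Null minus WT solvent. The replicate numbers were shared by all groups, but deviations of same-numbered libraries correlated at -0.722 to 0.947 over 66 group pairs, and 11 pairs, all with Null APR-246, were below -0.1. The other 55 pairs were at 0.529 or more, so same-numbered libraries deviated together in 11 of the 12 groups, which the fits without the block leave out. Since not every pair did, the number is not taken as a pairing. With the replicate block and no slope the counts were 9 for irradiated Mutant, 5 and 1 for APR-246 in Mutant and Null, 6, 7 and 1 for the combination, and 15 and 11 for the irradiation and APR-246 averages. With block and slope together they were 16, 11 and 5 after irradiation, 18 and 11 under APR-246 in Mutant and Null, and 20, 12 and 4 under the combination. The averages then had 20 and 23, combination minus irradiation 0, and Null minus WT solvent 6. DESeq2 called 3 members in irradiated Mutant (2.89% of all genes), and 2 and 1 under APR-246 in Mutant and Null (0.489% and 2.21%). It called 5, 1 and 1 under the combination in Mutant, Null and WT (3.06%, 5.44% and 4.83%). In the APR-246 average it called 7 (7.30% of all genes). Without TMM scaling 1 was called in Mutant under the combination, and without the filter 3 in the irradiation average. No share of all genes is given for fits with the block, without TMM scaling, without the filter or with 1 library left out. Those counts are therefore not read against all genes. edgeR and a pseudocount of 1 kept each count within 1.5 times. Fits of only the lines compared called 0 members and give no value for the averages.

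With 1 library left out and no slope, the irradiation average had 3 (without WT irradiation library 2) to 7 members and the APR-246 average 1 to 6. With the slope the ranges were 1 to 11, 2 to 3 and 0 to 4 after irradiation, 0 to 15, 3 to 6 and 0 to 13 under APR-246, and 3 to 17, 7 to 10 and 1 to 3 under the combination in Mutant, Null and WT. The averages ran from 15 to 21 and from 19 to 25, combination minus irradiation from 0 to 2, and Null minus WT solvent from 0 to 4.

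Single values changed sign in a few places, none of them called. In combination minus irradiation in WT, BRCA2 was -0.053 with block and slope and RBBP8 -0.010 with the slope and -0.11 with both. PALB2 in Null ran from -1.25 to 0.35 with 1 library left out. In Mutant minus WT solvent BRCA2, FANCM and NBN were -0.26, -0.13 and -0.22 without WT solvent library 2, and ran from -0.35, -0.31 and -0.23 (without Mutant solvent library 1) up to 1.59, 1.24 and 1.13 (without Mutant solvent library 2). Of the other values of single genes, 1262 kept direction and call, 247 lost the call and 65 gained it. The causes were not tested.

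Without TMM scaling the median of all genes moved by 0.15 for the combination in WT, 0.14 and 0.10 for combination minus irradiation in WT and Mutant, 0.10 for the irradiation response in Null minus WT, and -0.12 for both combination responses. Each group had 2 libraries, which limits precision.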
